A study of Mus musculus with 36 samples.

Results

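The loci described here are stretches of open chromatin with fewer tags, relative to the median locus, in nuclei from the infarct border zone than in those from sham-operated hearts on days 4, 7 and 14 after surgery. Tags are the sequenced reads or fragments that the authors counted in a region. The regions that the authors listed for the 3 days were pooled, and those that overlapped by 1 bp or more were merged into loci. For each locus and day, the tags of border zone and sham were summed over its regions. R is their ratio, border zone over sham, divided by the median ratio of all loci of that day, so that R of 1 is the change of the median locus. The members were chosen by these measured values, as the loci listed on all 3 days with R of at most 0.75 on every day. They are 685 of the 19733 loci listed on all 3 days and of 60847 loci in all. Because the choice used every border zone and sham value of the 3 days, those values are given as a description, with no test.

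ATAC-seq measured 6 libraries of nuclei sorted or enriched for cardiomyocytes, from left ventricles of FVB/N mice, 1 sham and 1 border zone library for each day, so no value here has a replicate. On day 4, nuclei came from Cdh5-Cre; Sun1-sfGFP mice after a sham operation or myocardial infarction. They were sorted for GFP and enriched with a PCM1 pulldown, and no tamoxifen is stated. On days 7 and 14, nuclei came from Myh6-MerCreMer;nTnG mice after the same operations. All of these mice, sham included, had received 20 mg/kg tamoxifen before surgery, which starts Cre activity in cardiomyocytes, and 50000 GFP-positive nuclei per sample were sorted. Cdh5 is an endothelial cadherin whose promoter usually drives Cre in endothelial cells, whereas the Myh6 promoter is active in cardiomyocytes. The way the GFP sort and the PCM1 pulldown were combined on day 4, and any pooling of animals in a library, were details not given in the sources used here. Between day 4 and the later days, time, mouse line, isolation of nuclei and aligner changed together and cannot be told apart. The series also has 30 RNA-seq samples, which were not used here.

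ATAC-seq uses a transposase that inserts adapters into accessible DNA, so tags pile up at promoters, enhancers and other regulatory elements. The border zone is the surviving muscle next to an infarct, where cardiomyocytes are known to lower many genes of contraction, calcium handling and oxidative metabolism and to re-express fetal genes. PCM1 sits at the nuclear envelope of cardiomyocytes in the adult heart and is used to separate their nuclei from those of other cells. In such sorted material, fewer accessible nuclei and less accessibility per nucleus cannot be told apart. Positions are given in mouse build mm9, counted from 1. No mm9 genome or gene annotation was used here, so the loci are named by position, without genes or sequences, and the cell type was not checked against marker genes.

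On days 4, 7 and 14, the median R of the 685 reduced loci was 0.692, 0.491 and 0.611. From lower to upper quartile, day 4 ran from 0.641 to 0.724, day 7 from 0.407 to 0.594 and day 14 from 0.532 to 0.676. The reduced loci therefore lay close under the threshold on day 4 and spread far below it on day 7. Across all loci listed on 3 days, median R was 0.941, 0.824 and 0.904 on days 4, 7 and 14. Loci listed on fewer days had higher ratios, which places the day's median above that of the loci listed on 3 days. The same tags without division by the day's median gave summed border zone over sham ratios of 0.640, 0.458 and 0.608 for the reduced loci.

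**Figure D1:**
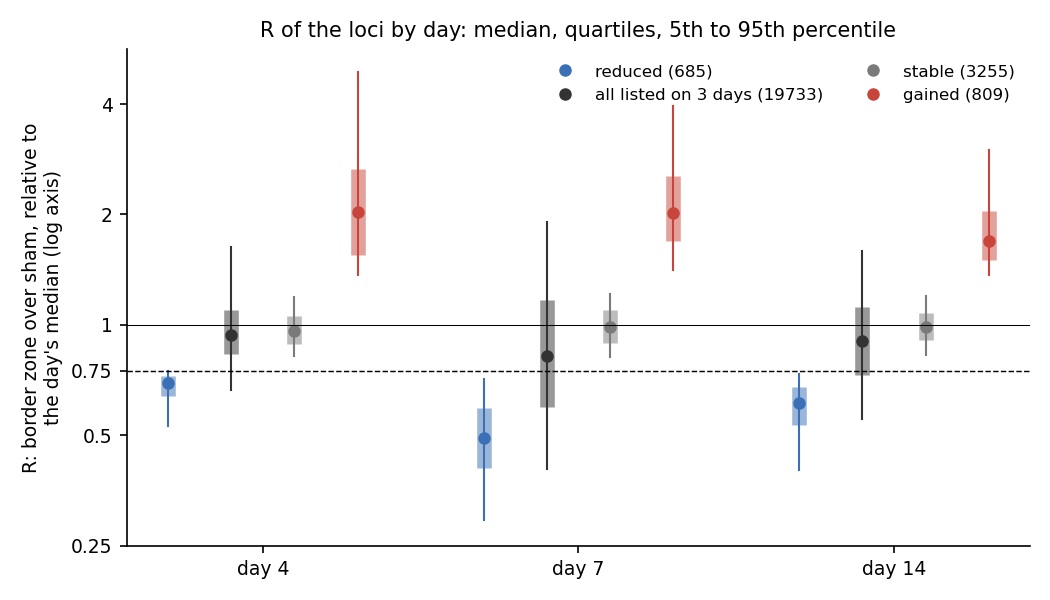
R (border zone over sham relative to the day's median, log axis) by day for the 685 reduced loci, all 19733 loci listed on 3 days, 3255 stable loci with R between 0.8 and 1/0.8 on every day, and 809 gained loci with R of at least 1.33 on every day. Points are medians, boxes quartiles and lines the 5th to 95th percentiles, and the reduced loci have their lowest median, 0.491, on day 7; the thresholds fix that the groups do not overlap.

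In all, the reduced loci held 153747 sham tags on day 4 against 98365 border zone tags, the latter as scaled by the authors. The sums of day 7 were 81943 and 37563 tags, and those of day 14 were 331860 and 201672 tags. They took 2.60%, 2.12% and 2.38% of all listed sham tags on days 4, 7 and 14, against 1.79%, 1.02% and 1.43% of the unscaled border zone tags. A single reduced locus had a median of 179 sham tags on day 4, with a range of 35 to 2349. The median of day 7 was 78 (range 50 to 3429), and that of day 14 was 338 (range 150 to 14366). The day 7 median lay close to the lowest value of that day. The corresponding border zone medians were 115, 36.4 and 204 scaled tags. The median over all loci listed on 3 days was 159, 97 and 369 sham tags.

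The R threshold was met by 11.8% of the loci listed on 3 days on day 4, by 42.8% on day 7 and by 27.8% on day 14, and by 3.47% on every day. Day 4 was thus the day that removed most candidates. Of 4487 loci at or under 0.75 on days 7 and 14, 685 (15.3%) were also so on day 4. Of 799 loci at or under it on days 4 and 14, 85.7% were also so on day 7. Of 1214 loci at or under it on days 4 and 7, 56.4% were also so on day 14. Day 4 showed the smallest distance between this share and that of all loci listed on 3 days. The rule fixes these counts, and nothing further is read from them.

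Within the reduced loci, R was lowest on day 7 in 496 (72.4%), on day 14 in 141 and on day 4 in 48. It was highest on day 4 in 483 (70.5%). The order day 7, day 14, day 4 from lowest to highest was found in 370 (54.0%). The same order of medians was present among all loci listed on 3 days, so it is no property of the reduced loci alone. R of at most 0.5 was reached by 21, 358 and 130 reduced loci on days 4, 7 and 14, and by 4 on every day. R of at most 0.6 was reached on every day by 45, and of at most 0.667 by 163. For all loci listed on 3 days, such counts of single loci are not given here. No difference from those loci is read from the counts. The mean log2 R over the 3 days had a median of -0.78 and ranged from -1.99 to -0.45. The SD of log2 R over the 3 days had a median of 0.29, against 0.32 for all loci listed on 3 days and 0.15 for the stable loci, whose range of R the rule restricts most.

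Many reduced loci sat near the threshold. The largest of the 3 R values was above 0.7 in 376 (54.9%), and day 4 set it in 272 of these, while 715 further loci had their largest R between 0.75 and 0.8. Just inside were chr7:139444751-139445750 and chr5:120101251-120102250, each with a largest R of 0.7497 on day 4, and chr5:136938251-136939250 with 0.7494 on day 7. Just outside were chr15:36011751-36013250 with 0.7501 on day 4, chr17:27723251-27725750 with 0.7501 on day 14 and chr6:140229751-140231250 with 0.7502 on day 7. Loci on both sides of the threshold therefore differ by far less than their counting error.

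The counting error of R was taken from exact Clopper-Pearson 95% intervals on the unscaled tags. Without molecular identifiers, several tags can be copies of the same molecule, and the intervals cover counting error only. The upper limit of R lay below 1 in 662 reduced loci (96.6%) on day 4, in 593 (86.6%) on day 7 and in all 685 on day 14. It lay below 1 on every day in 574 (83.8%). Among all loci listed on 3 days these shares were 20.0%, 37.6% and 42.2%, and 9.45% on every day. The upper limit lay below 0.75 itself in 65, 336 and 362 reduced loci on days 4, 7 and 14, and on every day in 31. For the single days, the share of all loci listed on 3 days below this limit is not given here. Since R chose the loci, these counts describe precision and are no test. Day 7, with the lowest R, was also the day with the fewest tags per locus.

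The authors' own calls covered the reduced loci unevenly. A region on the authors' list of higher tags in sham was found in 158 reduced loci (23.1%) on day 4, in 569 (83.1%) on day 7 and in 275 (40.1%) on day 14. Among all loci listed on 3 days the shares were 5.10%, 33.0% and 8.38%. The list held 68 reduced loci (9.93%) on every day, against 0.588% of all loci listed on 3 days. A further 249 were on it on 2 days, 300 on 1 day, and 68 on no day, where every region was listed as not differing. No reduced locus held a region of the list of higher tags in border zone on any day. Regions the authors listed as differing were put under sham or border zone here by which had more tags. With R of at most 0.75, little room was left for a region higher in border zone. Both calls rest on the same tags, so their overlap is no independent evidence.

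The 10 reduced loci with the smallest value of their largest R, among the 681 with at least 50 sham tags on every day, were all on the sham-higher list on each of the 3 days. The smallest was at chr4:54295251-54296750. Day 4 gave 85 sham and 37.4 border zone tags, day 7 gave 153 and 62.0, and day 14 gave 589 and 244. R was 0.469 (95% interval 0.306 to 0.706), 0.436 (0.307 to 0.610) and 0.408 (0.343 to 0.484), nearly level over the days within these intervals.

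At chr12:31027251-31029250 the border zone had 40.5 tags against 174 in sham on day 4. It had 71.4 against 162 on day 7, and 228 against 716 on day 14. R was 0.248 (0.169 to 0.355), 0.475 (0.341 to 0.651) and 0.313 (0.263 to 0.371). Its day 4 value was the lowest of all 685 loci on that day, and here R was higher on day 7 than on the other days. On day 7 the authors split the locus, and the left 1000 bp had 77 sham and 47.1 border zone tags (R of 0.659) while the right 1000 bp had 85 and 24.2 (R of 0.307).

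The opposite course was seen at chr4:75531251-75532250, a locus of 1000 bp. Day 4 gave 132 sham and 65.0 border zone tags, day 7 gave 88 and 12.1, and day 14 gave 190 and 39.8. R was 0.524 (0.379 to 0.718), 0.148 (0.0657 to 0.295) and 0.206 (0.134 to 0.306), so that the intervals of the later days lay below that of day 4. Its day 14 value was the lowest of all 685 loci on that day.

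Of the other 7, chr9:48502751-48506250 had R of 0.435, 0.290 and 0.481 on days 4, 7 and 14, from 114 and 46.6, 189 and 50.8, and 326 and 159 sham and border zone tags. The locus chr9:98230751-98231750 had R of 0.513, 0.374 and 0.498, from 64 and 30.8, 62 and 21.6, and 198 and 100 tags. At chr5:73267251-73268250 R was 0.490, 0.350 and 0.516, from 103 and 47.4, 83 and 26.9, and 241 and 126 tags. In these 3 loci the border zone was lowest relative to sham on day 7, but with 62 to 189 sham tags on that day.

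At chr14:114836751-114837750 R was 0.531, 0.357 and 0.461, from 137 and 68.3, 65 and 21.6, and 261 and 122 tags. At chr17:59522751-59524250 R was 0.533, 0.406 and 0.418, from 200 and 100, 75 and 28.3, and 343 and 145 tags. At chr9:102339251-102340750 R was 0.536, 0.319 and 0.476, from 214 and 108, 91 and 26.9, and 417 and 202 tags. These 3 had their highest R on day 4. The last of the 10, chr3:24021251-24022250, had the fewest sham tags summed over the 3 days, 286. Its tags were 82 and 33.0, 51 and 17.5, and 153 and 83.6, and its R was 0.429, 0.370 and 0.539. For day 7 at this locus the interval reached from 0.193 to 0.668.

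**Figure D2:**
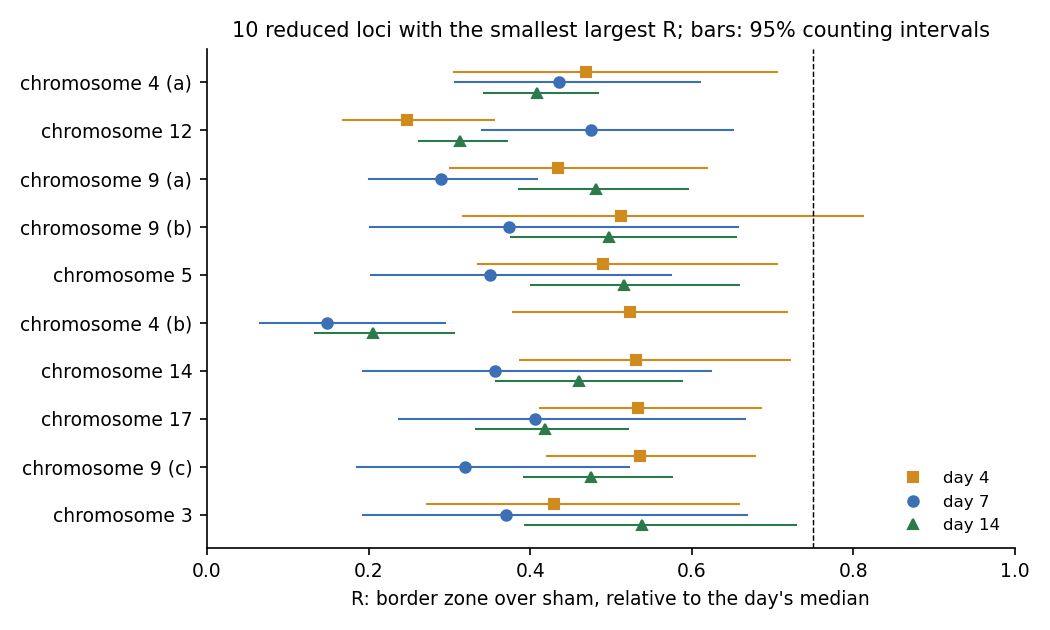
R on days 4, 7 and 14 (horizontal axis, border zone over sham relative to the day's median) of the 10 reduced loci with the smallest largest R, in the order of the text's rule and labelled by chromosome, with 95% counting intervals as bars and the 0.75 threshold as a dashed line. All points lie at or below 0.539, and the day 4 interval of the second locus on chromosome 9 reaches 0.812, past the threshold.

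The reduced loci with the most sham tags were wider and less evenly reduced. The largest, chr5:122552251-122564750, spanned 12500 bp and was also the widest. Day 4 gave 2349 sham and 1402 border zone tags, day 7 gave 3429 and 1537, and day 14 gave 14366 and 9312. R was 0.636 (0.594 to 0.680), 0.483 (0.451 to 0.516) and 0.639 (0.621 to 0.657). The authors divided it into several regions, and the highest ratios lay at its right end. On day 14, chr5:122557251-122560750 had 8969 and 4687 tags (R of 0.515), and the adjoining chr5:122560751-122564750 had 2543 and 2483 tags (R of 0.962). To the left, chr5:122554251-122557250 had R of 0.755 and chr5:122553251-122554250 had 0.561 on that day. On day 7, chr5:122552251-122560750 had R of 0.436, and the stretches to its right had 0.692 and 0.991. On day 4, chr5:122556751-122559750 had R of 0.554 and the 5000 bp to its right 0.691. On each day, then, the right end was closer to the median change than the stretches to its left. The authors' split into differing and not differing stretches follows the ratio itself, so the contrast of neighbours is partly set by that split.

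Ratios also differed along other large loci. The tags of chr2:76642751-76647750 were 1077 and 709, 662 and 267, and 2302 and 1378, with R of 0.701, 0.434 and 0.590. Its central 2500 bp had R of 0.489 on day 14 while the flanks had 0.879 and 0.810. In chr9:110669251-110678750, with R of 0.676, 0.470 and 0.705, the day 14 stretch chr9:110673751-110675250 had 683 and 339 tags (R of 0.489) and the next 2500 bp had 765 and 720 (0.927). In chr5:122973751-122980750, with R of 0.660, 0.583 and 0.749, the first 1000 bp had 370 and 155 tags (R of 0.413) on day 14 and the remaining 6000 bp had 4699 and 3697 (0.775). In each of these 3 loci, 1 or 2 stretches outside the lowest one were above the threshold on day 14, so that only a part of the length met it. In chr19:53784751-53788750, with 534 and 375, 627 and 287, and 2538 and 1817 tags and R of 0.748, 0.493 and 0.705, the lowest day 14 stretch, chr19:53787251-53788250, had R of 0.502.

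Of the remaining loci of the 10 with the most tags, chr14:55587751-55590750 had another order of days and is described below. The others were alike in their order of days. At chr5:122958251-122962250 R was 0.724, 0.536 and 0.712, and the counts were 1085 and 737, 666 and 331, and 2308 and 1667 tags. At chr13:32854251-32857250 R was 0.731, 0.440 and 0.590, from 1002 and 688, 534 and 218, and 1937 and 1160 tags. At chr14:74030751-74033250 R was 0.728, 0.412 and 0.504, from 1062 and 726, 458 and 175, and 1776 and 909 tags. All 3 were just under 0.75 on day 4 and lowest on day 7. At chr14:29854251-29856250 the values were lower, with R of 0.657, 0.324 and 0.540 from 762 and 470, 492 and 148, and 1968 and 1078 tags. The 5 widest members added 1 locus, chr11:69750251-69755250, with R of 0.736, 0.572 and 0.735 from 517 and 357, 213 and 113, and 1972 and 1470 tags.

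A locus among those with the most tags, chr14:55587751-55590750, was a member by joining only. On day 14 it had 14181 sham and 5230 border zone tags (R of 0.363, 0.351 to 0.377), in a region of 2500 bp. On day 4 it had 483 and 270 tags (0.595, 0.508 to 0.696) over 3000 bp. On day 7 only the last 500 bp were listed, with 87 and 57.9 tags (0.717, 0.485 to 1.04), and this stretch shared no base with the day 14 region. Of the 685 loci it was the single one whose regions of the 3 days had no base in common, and its day 7 value is that of another stretch of DNA than its day 14 value.

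In extent, the reduced loci were short. The median width was 1500 bp, as for all loci listed on 3 days, but 314 (45.8%) were 1000 bp wide or less, against 31.6% of all, 27.1% of the stable and 39.8% of the gained loci. Only 16 (2.34%) were wider than 3000 bp, against 5.75% of all, 8.54% of the stable and 3.34% of the gained loci. By width class, the share of reduced loci fell from 5.03% at 1000 bp or less through 3.60% at 1500 bp and 2.51% up to 2000 bp to 1.11% at 2500 to 3000 bp, and was 1.41% above that. The gained loci followed a like course, from 5.16% to 2.38%, so short loci were more frequent in both directions. Short loci hold fewer tags and their ratios vary more by counting alone, and the part of this in the shares was not tested.

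By sham tags, the reduced and gained loci differed. When the loci listed on 3 days were put into 5 classes of near equal size by their sham tags, reduced loci made up 2.10% of the lowest class (54 to 381 tags over the 3 days), 4.75%, 4.82% and 3.45% of the next 3, and 2.25% of the highest (1195 tags or more). Gained loci made up 12.9% of the lowest class and 0.431% of the highest. The reduced loci were thus most frequent at middle sham levels and the gained loci at the lowest. Sham tags are the denominator of R, so low sham counts raise R and the classes are not independent of the choice. The listing also limits the classes. Every reduced locus had at least 35, 50 and 150 sham tags on days 4, 7 and 14. Gained loci had at least 35, 50.2 and 151 border zone tags, but as few as 2, 10 and 20 sham tags. A gained locus could thus be listed with few sham tags, and the part of this in the shares was not tested.

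**Figure D3:**
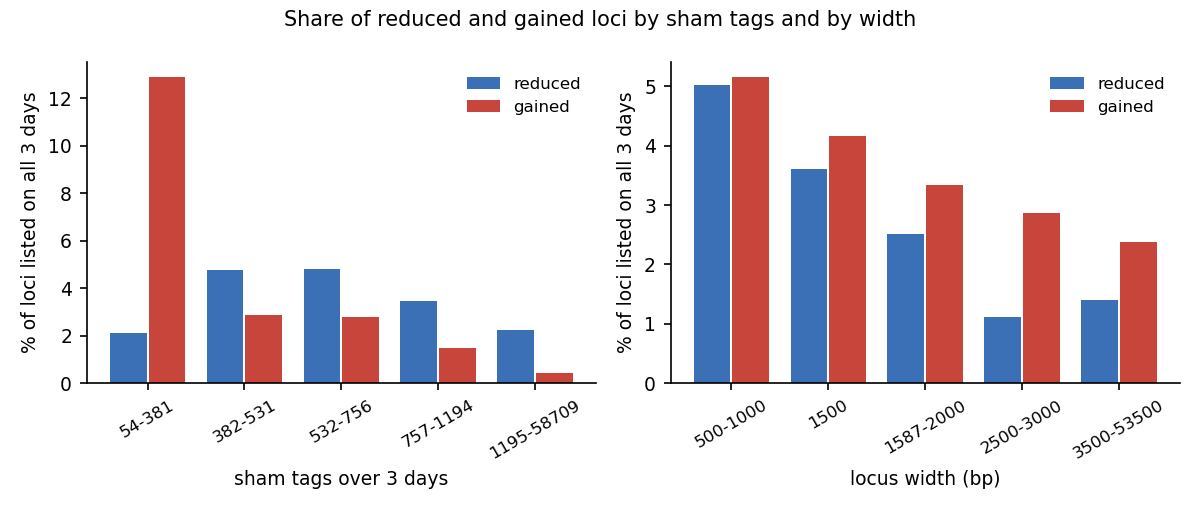
Share of the loci listed on all 3 days (vertical axis, %) that were reduced (blue) or gained (red), by classes of sham tags summed over the 3 days (left) and by locus width in bp (right). Reduced loci peak at 4.82% in the middle class of tags and fall with width from 5.03% to 1.11% and 1.41%, while gained loci reach 12.9% in the lowest class of tags.

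The listed stretch was shared between the days in most reduced loci, as in other loci. In 684 of 685 (99.9%) the regions of the 3 days shared at least 500 bp, against 99.7% of all loci listed on 3 days. In 408 (59.6%) the whole locus was listed on each day, against 48.1% of all loci listed on 3 days and 51.7% of the gained loci. In 498 (72.7%) the locus was a single region on every day, against 75.7% of all. Another listed locus adjoined 37 reduced loci (5.40%), 6.58% of all and 16.1% of the gained loci. For most members, R of the 3 days therefore refers to the same DNA.

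In the sham libraries, whose tags the rule used, the reduced loci had a different level on day 4. As a share of the day's listed sham tags, the median log2 difference between day 4 and day 7 was 0.40 for the reduced loci, and 527 of 685 (76.9%) were higher on day 4. It was -0.06 for all loci listed on 3 days, -0.37 for the stable and -1.15 for the gained loci. Between day 4 and day 14 the medians were 0.25 for the reduced, -0.04 for all and -1.01 for the gained loci, and between days 7 and 14 they were -0.13, 0.02 and 0.11. Loci that were lower in the border zone thus tended to hold more of the sham tags on day 4 than on the later days, and gained loci fewer. In the border zone libraries the reduced loci were also higher on day 4, by a median log2 of 0.95 against day 7, where all loci listed on 3 days had 0.25 and the stable loci -0.35. Nuclei of day 4 were isolated in another way and from another mouse line, whose part in this was not tested. The sham and border zone tags of each day enter R, by which the loci were chosen. These levels are therefore not separate from the rule, and the part of the choice in them was not tested. The shares were not divided by the listed length, which also differed between days. Its mean on days 4, 7 and 14 was 1412, 1242 and 1253 bp for the reduced loci. It was 1290, 1407 and 1363 bp for the gained loci, and 1606, 1469 and 1454 bp for all loci listed on 3 days. The part of length in these differences was not tested.

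The reduced loci lay on all autosomes and on X. Chromosome 1 held the most, 72 of its 1364 loci listed on 3 days (5.28%), followed by chromosome 9 with 59 of 1083 (5.45%). The highest share was on chromosome 14 with 46 of 755 (6.09%), and the lowest among the autosomes on chromosome 7 with 29 of 1239 (2.34%). X held 9 of 205 (4.39%).

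Some reduced loci lay near each other. Another reduced locus was found at a gap under 5 kb for 29 (4.23%) and under 20 kb for 58 (8.47%). It was found under 50 kb for 89 (13.0%) and under 100 kb for 123 of 685. Of all loci listed on 3 days, 1.06% had a reduced locus under 5 kb away and 6.61% under 50 kb. Under 100 kb, the gap used for the groups below, 2159 of those 19733 loci (10.9%) had one, so nearness at this gap was common. The stable loci had a reduced locus within 20 kb in 2.52% and the gained loci in 1.36%, against 3.22% of all loci listed on 3 days. Gained loci lay near gained loci as well, 11.5% of them within 20 kb. Most reduced loci stood alone. Chained at gaps of at most 100 kb, which adds 1 pair at exactly 100 kb, they formed 616 groups, of which 560 held a single locus, 48 held 2, 5 held 3, 1 held 4 and 2 held 5. Neighbours within a wide accessible stretch can share tags of one element split by the listing, so they are not independent.

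Loci that were not reduced by the rule were also lower beside a reduced locus. Within 5 kb of one, 181 such loci had a median R of 0.921 on day 4, 0.689 on day 7 and 0.821 on day 14. More than 500 kb away, 12862 loci had medians of 0.949, 0.855 and 0.918. At 5 to 20 kb the medians were 0.917, 0.691 and 0.843, and at 100 to 200 kb they were 0.961, 0.844 and 0.928. The difference was thus widest on day 7, was small on day 4, and was no longer seen at 100 to 200 kb. Around gained loci the course was the reverse, with 0.977, 0.993 and 1.01 within 5 kb and 0.927, 0.774 and 0.868 beyond 500 kb. Median sham tags over the 3 days were 789 within 5 kb of a reduced locus and 624 beyond 500 kb. Around gained loci they were 730 and 636. Sham tags are the denominator of R, and their part in these medians was not tested. Loci listed on only 1 or 2 days, which the rule could not choose, also differed by position. Those within 20 kb of a reduced locus had a median R of 0.991 on day 4 (627 loci), 0.967 on day 7 (221) and 0.969 on day 14 (408), and those farther away had 1.13, 1.59 and 1.20. These loci have their own tags, but come from the same libraries as the loci that were chosen. Loci with few sham tags could be listed through their border zone tags. Of the farther loci, 4239, 4306 and 3944 were on the authors' list of higher tags in border zone on days 4, 7 and 14. Those numbers are of 24525, 11031 and 17926 loci. Near a reduced locus they were 80, 40 and 40. The part of the listing in these medians was not tested.

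**Figure D4:**
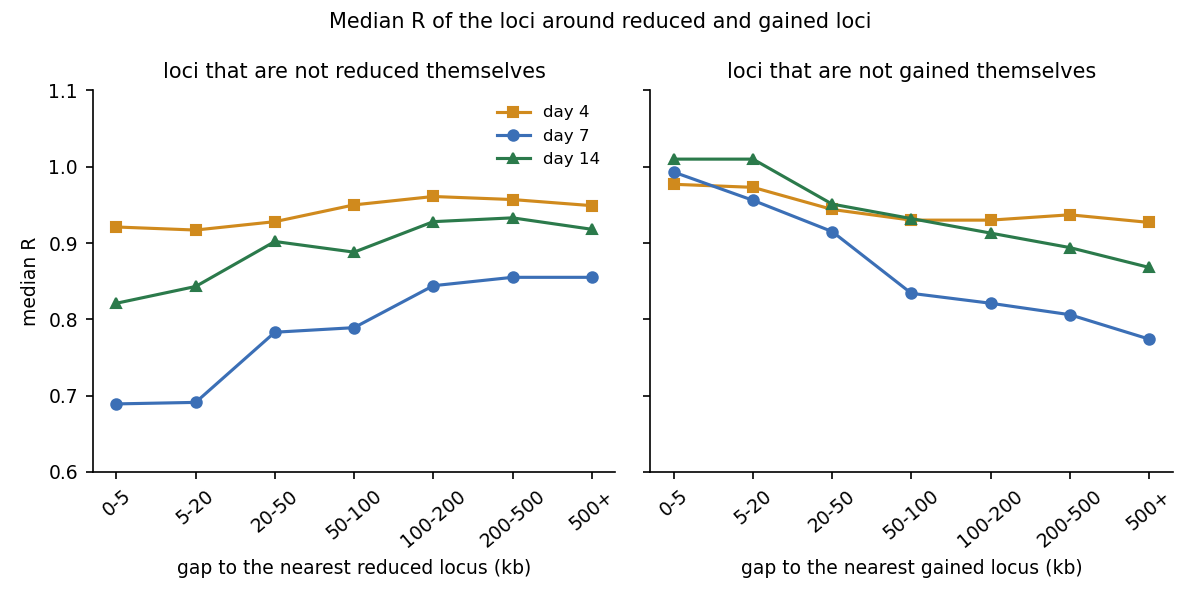
Median R (vertical axis) of loci listed on 3 days by the gap in kb to the nearest reduced locus (left, reduced loci left out) or gained locus (right, gained loci left out), on days 4, 7 and 14. Beside reduced loci the day 7 median falls to 0.689 from 0.855 beyond 500 kb, and beside gained loci it rises to 0.993 from 0.774.

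For the 5 groups described next, only loci listed on 3 days were counted and given R. In the order of the text, these groups held a further 8, 2, 6, 0 and 1 loci listed on fewer days. The group with the most tags among those of 5 lay at chr5:122958251-123077750, with 5 reduced of 6 loci over 120 kb. The median R of its reduced loci was 0.660, 0.583 and 0.688 on days 4, 7 and 14. Besides chr5:122958251-122962250 and chr5:122973751-122980750 it held chr5:122968751-122971750, with R of 0.672, 0.494 and 0.569 from 710 and 448, 364 and 167, and 1774 and 1024 tags. The right-hand members chr5:123010251-123011750 and chr5:123076751-123077750 had R of 0.656, 0.698 and 0.688, and of 0.621, 0.618 and 0.673. The locus that was not reduced, chr5:123070751-123072250, had R of 0.846, 0.737 and 0.956, and it lies between 2 of the reduced loci. The largest reduced locus of all, chr5:122552251-122564750, lies before this group on the same chromosome.

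The other group of 5 lay at chr1:40642751-40734750, over 92.0 kb, with median R of 0.706, 0.474 and 0.546. Its first member, chr1:40642751-40644250, had R of 0.558, 0.378 and 0.495 from 173 and 90.6, 92 and 32.3, and 393 and 197 tags. The locus in this group that was not reduced, chr1:40726251-40727750, missed the threshold on day 4 alone, with R of 0.771, 0.361 and 0.599 from 416 and 301, 185 and 62.0, and 749 and 455 tags. All 6 loci listed on 3 days in this stretch were therefore lower than the median locus on every day. R of its 2 other loci, listed on fewer days, is not given here.

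The group at chr9:102305751-102421750 was mixed, with 4 reduced of 7 loci. Among the reduced, chr9:102420251-102421750 had R of 0.648, 0.472 and 0.560 from 332 and 202, 203 and 88.9, and 753 and 428 tags. Before it, chr9:102399251-102402250 was stable, with 411 and 338, 303 and 321, and 1306 and 1429 tags and R of 0.876, 1.14 and 1.08. Beside the stable locus, chr9:102394751-102396250 had R of 1.22, 0.510 and 0.894. The 3 loci that were not reduced lay between reduced ones within the 116 kb of the group.

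The most compact of the 5 groups was chr13:32854251-32869250, with 3 reduced loci and no other over 15.0 kb. Its members had R of 0.731, 0.724 and 0.697 on day 4, of 0.440, 0.503 and 0.306 on day 7, and of 0.590, 0.650 and 0.658 on day 14, from left to right. On day 7 the right one, chr13:32866251-32869250, had 292 sham and 82.9 border zone tags. In the group at chr9:48502751-48539250, 3 of 6 loci were reduced, and all 6 had R of at most 0.507 on day 7. The 3 that were not reduced had R of 0.757 to 0.850 on day 4, over the threshold, and 2 of them were over it on day 14 as well.

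**Figure D5:**
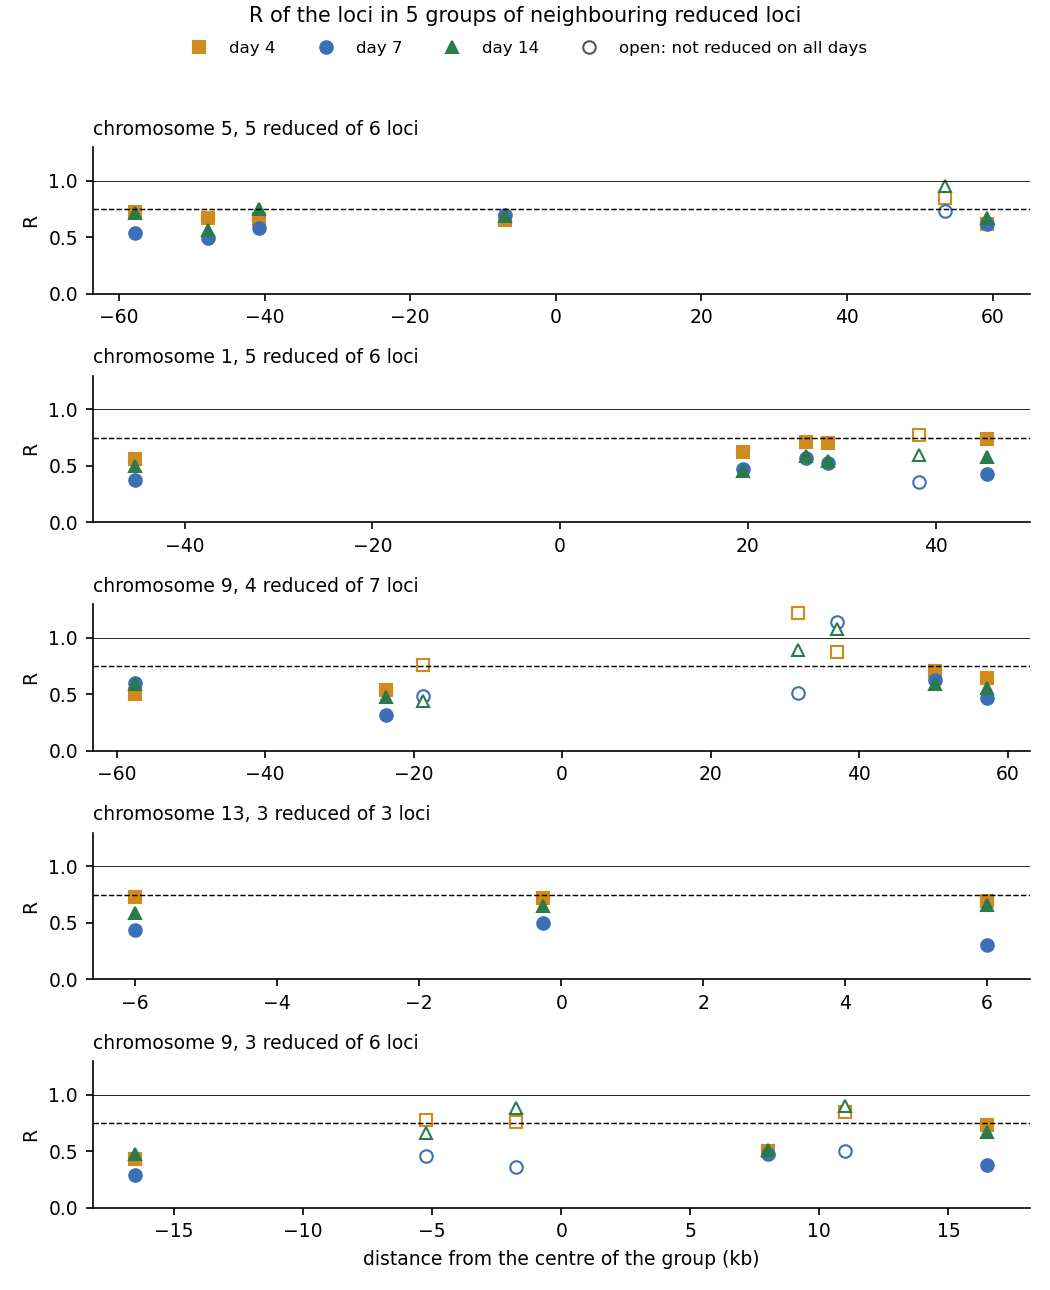
R (vertical axis, border zone over sham relative to the day's median) of every locus listed on 3 days within the 5 groups of reduced loci, by the distance in kb of its centre from the centre of the group. Filled symbols are reduced loci and open ones are not, and the group on chromosome 13 has no open symbol while that of 116 kb on chromosome 9 holds open symbols above 1.

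The number of reduced loci changed with the reference for R, the days required and the threshold. With the median taken over the loci listed on 3 days in place of all loci of the day, 268 loci met the rule, all of them among the 685. Without day 4, day 7 or day 14 the rule chose 4630, 1296 or 1355 loci. Here the day left out was dropped for the listing as well as for R, so loci not listed on that day were included. With R of at most 0.7 or 0.8 the number was 309 or 1400.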

How the data were processed

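The authors aligned reads to mm9 with Bowtie2 (day 4) or BWA (days 7 and 14) and used bedtools, per the submitters' processing notes. How regions were called, at what thresholds, with which tool versions and with what treatment of duplicates were details not given in the sources used here. Per the file headers, 9 deposited lists (higher in sham, higher in border zone, not differing, for each day) give region, sham tags and border zone tags. Sham tags are deposited counts. Border zone tags are a deposited signal that the authors scaled, read from the values: in 8 lists, 97.7% of 85106 values were a whole number times 1 factor (relative tolerance 1e-05), namely 1.03 or 1.10 on day 4, 1.35 or 1.17 on day 7 and 1.37 or 1.18 on day 14. The not differing list of day 4 holds unscaled counts. On day 4 the members' regions thus mixed scales: 623 were unscaled, 63 had the factor 1.03 and 78 had 1.10. Listed sham tags summed to 5907384, 3858892 and 13936013 on days 4, 7 and 14, which is part of each library and not its depth.

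Regions were joined with pandas 2.3.3 and numpy 2.4.6. The day's medians of border zone over sham were 0.939, 0.929 and 1.01. Intervals came from SciPy 1.17.1 on unscaled tags. The joining and the recovery of whole tags were tested on simulated data. The members, the groups compared and the alternatives were chosen with earlier results of these data known. Named loci are the 10 with the smallest largest R (at least 50 sham tags on every day), the 10 with the most sham tags, the 5 widest, the 5 groups with the most members at gaps of at most 100 kb (ties broken by sham tags), and 3 on each side of the threshold. With 1 library per condition and day, no test was made and none of the values has a biological error.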

Additional observations from a re-analysis of the deposited data

How the results depend on the processing

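The 685 reduced loci rested on the threshold, the day's reference and the use of all days. Whole border zone tags gave 690 loci (676 of them in common), the ratio of summed tags 644 (633 in common), a minimum of 50 sham tags 681, joining at 500 bp 685 and loci of at most 3 kb 669. The median over loci listed on 3 days gave 268, and their median R was 0.699, 0.550 and 0.631 on days 4, 7 and 14. A threshold of 0.7 gave 309 and of 0.8 gave 1400. Without day 4, which was then not required for listing either, the rule chose 4630 loci, with median R of 0.530 on day 7 and 0.641 on day 14. The same holds for the other days left out. Without day 7 it chose 1296, and without day 14 it chose 1355, with a median R of 0.538 on day 7. Of 37 alternative values, 12 moved as given. The other 25 were counts of loci within 1.5 times of 685, or medians and a share inside the 95% interval of the value reported, taken over the loci (for width, inside its quartiles). Such an interval takes the chosen loci as independent, and the alternatives reuse the same libraries and many of the same loci. A value inside it is therefore no evidence of stability. Distances to gene starts and motifs were not run, since no mm9 genome or annotation was used here. On day 7, where a reduced locus had a median of 27 unscaled border zone tags, counting error was widest.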
